A study of Mus musculus with 70 samples.

Results

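The granins and the enzymes that process prohormones make up the peptide cargo system of the dense-core vesicle, and their transcripts were examined in brains that lacked 1 of the isoforms of the transcriptional repressor Capicua. Members were taken by name from a list of 10 genes: the granins Vgf, Scg2, Scg3, Scg5, Chga and Chgb, and the processing genes Pcsk1, Pcsk2, Pcsk1n and Cpe. Of these, 9 were matched among the 50789 genes of the count table, and Scg2 was not analysed here. The list was chosen by gene function and because Vgf is a reported target of Capicua, with earlier results of these data known. Poly(A)-selected RNA came from flash-frozen mouse cortex and cerebellum at 12 weeks of age, with 8 WT, 7 Cic-S-KO and 8 Cic-L-KO samples in each region, 46 in all. Cic-S-KO denotes mice without the short Capicua isoform and Cic-L-KO mice without the long isoform, as far as the labels state. WT samples were littermates pooled over both lines, and the line of each is not stated. Lung at postnatal day 6, with 8 samples of each genotype, is described last. The labels do not say that samples of a group came from separate animals, so p-values measure the spread between these samples.

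Granins are acidic secretory proteins that aggregate in the trans-Golgi network and help to form the dense-core vesicles in which neurons and endocrine cells store peptides. Inside these vesicles the prohormone convertases PC1/3, made by Pcsk1, and PC2, made by Pcsk2, cut precursors at paired basic residues, and carboxypeptidase E, made by Cpe, trims the basic residues left at the ends. The proteins 7B2, made by Scg5, and proSAAS, made by Pcsk1n, bind and restrain PC2 and PC1/3, and 7B2 is also needed for PC2 to mature. In brain, Vgf and Pcsk1 are known as genes that respond to neuronal activity and to neurotrophins, through cAMP response elements (CRE) in their promoters.

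Promoter sequences from RefSeq, on build GRCm38.p6, covered 250 bases before and 50 bases after the start of 7 of the 9 members, all but Vgf and Cpe. The palindromic CRE TGACGTCA, which reads the same on both strands, lay in 2 of the 7 promoters, those of Chgb and Pcsk1, and in 1.79% of the 32851 mouse promoters of this length. The sequences of these 2 promoters are shown. That of Chga stands beside them as the partner granin without an exact palindrome, in which the half-site reads on as TGACGTAA. Capitals mark the palindrome or the half-site TGACG. The Chgb promoter (chr2:132781392-132781691, plus strand), the Pcsk1 promoter (chr13:75089607-75089906, plus strand) and the Chga promoter (chr12:102554691-102554990, plus strand) read 5′ to 3′ as follows.
Chgb: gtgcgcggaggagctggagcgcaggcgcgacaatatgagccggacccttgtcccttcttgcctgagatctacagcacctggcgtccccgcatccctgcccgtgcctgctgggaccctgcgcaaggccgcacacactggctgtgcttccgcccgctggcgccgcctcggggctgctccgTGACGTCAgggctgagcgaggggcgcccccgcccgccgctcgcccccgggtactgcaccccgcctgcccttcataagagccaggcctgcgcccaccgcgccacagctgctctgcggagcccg
Pcsk1: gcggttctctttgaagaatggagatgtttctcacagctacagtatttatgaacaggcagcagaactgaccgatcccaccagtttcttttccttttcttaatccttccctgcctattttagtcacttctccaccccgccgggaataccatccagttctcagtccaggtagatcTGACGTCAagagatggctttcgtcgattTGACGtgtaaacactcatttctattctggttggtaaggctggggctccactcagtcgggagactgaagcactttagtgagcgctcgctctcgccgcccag
Chga: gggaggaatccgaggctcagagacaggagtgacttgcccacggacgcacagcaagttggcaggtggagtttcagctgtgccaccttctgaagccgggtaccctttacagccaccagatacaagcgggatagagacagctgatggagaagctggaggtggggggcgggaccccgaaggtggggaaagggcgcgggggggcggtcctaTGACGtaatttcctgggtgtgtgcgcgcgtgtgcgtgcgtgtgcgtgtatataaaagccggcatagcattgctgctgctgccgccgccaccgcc
Counted from the start site, the palindrome spanned positions -72 to -65 in Chgb and -78 to -71 in Pcsk1. The half-site, searched on both strands as TGACG or CGTCA and also contained in the palindrome, lay in 6 of the 7 member promoters (all but Pcsk1n) and in 20.8% of all promoters. Only Chga held TATAAA on the given strand, at positions 6 to 11 after the annotated start, and 8.32% of all promoters held it. The Capicua octamers TGAATGAA, TCAATGAA, TGAATGGA and TCAATGGA, searched on both strands, were in 0 of the 7 windows and in 3.84% of all promoters. These matches are letters in a window and not measured binding, and their relation to the levels below was not tested.

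Brain libraries held between 20440799 and 32548951 counts. Levels are given as CPM, the count relative to a library total scaled by the trimmed mean of M values. As a check of the labels, the targeted gene Cic, which is counted as a whole and so cannot show the loss of 1 isoform, ranged from 155 to 179 CPM in WT cortex, from 243 to 267 CPM in Cic-S-KO cortex and from 276 to 326 CPM in Cic-L-KO cortex. In cerebellum its ranges overlapped, at 168 to 209, 176 to 221 and 188 to 223 CPM in the same order. Regional identity matched the labels, with summed markers of cerebellar granule neurons at 2634 to 5051 CPM in cerebellum and 17.4 to 30.4 CPM in cortex. Markers of the pituitary, a granin-rich gland, summed to at most 2.19 CPM in cortex and 8.11 CPM in cerebellum, and its marker Cga was at 0 in all libraries of each cortical group. Of the 23 cerebellar libraries, 6 stood apart, namely WT replicate 1, Cic-S-KO replicates 4 and 6 and Cic-L-KO replicates 2, 3 and 4. In them the peptide genes Sst, Tac1 and Vip summed to 11.4 to 28.4 CPM, against 1.47 to 5.68 CPM in the other 17, and member calls that changed without them are given both ways.

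Compared between genes per kilobase of exon, the carboxypeptidase Cpe was the most abundant member in both WT regions, at 1247 ± 57.2 CPM per kb (SD, n = 8) in cortex and 544 ± 19.8 in cerebellum. In cortex it was followed by Pcsk1n (266 ± 18.2), Chgb (215 ± 10.9), Vgf (147 ± 17.5), Scg3 (130.2 ± 8.38), Scg5 (117 ± 6.78), Chga (52.7 ± 3.11), Pcsk2 (44.3 ± 3.0) and Pcsk1 (15.4 ± 2.99). Sample ranges overlapped between the neighbours Vgf and Scg3, Scg3 and Scg5, and Chga and Pcsk2, and between no other neighbours in that order. In cerebellum the order after Cpe was Chgb (299 ± 43.5), Pcsk1n (157 ± 14.1), Scg3 (154 ± 8.70), Scg5 (85.2 ± 4.72), Chga (41.1 ± 2.71), Vgf (14.6 ± 3.40), Pcsk2 (11.2 ± 0.836) and Pcsk1 (7.51 ± 0.728), with overlap between Pcsk1n and Scg3 and between Vgf and Pcsk2.

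**Figure D1:**
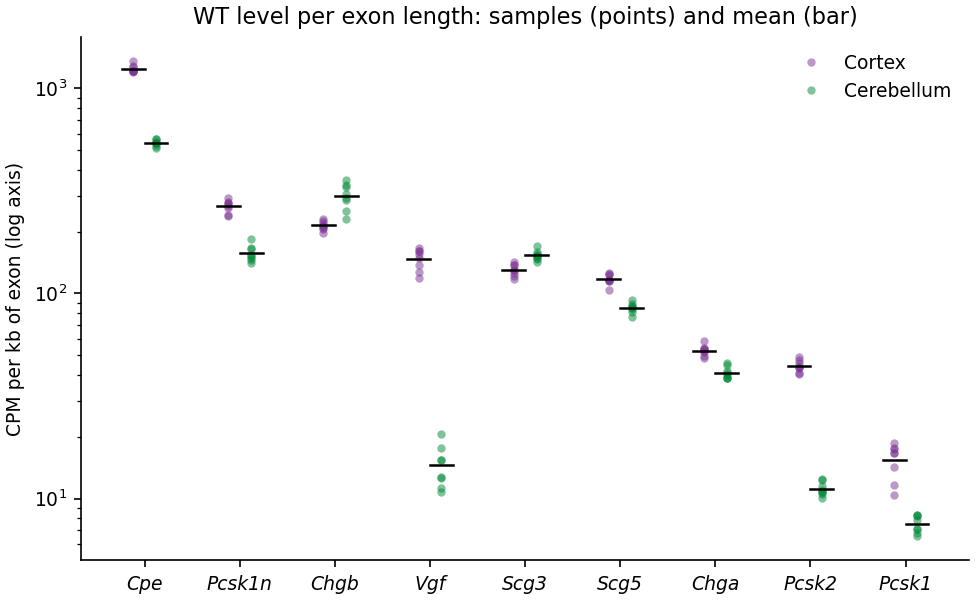
Level per kilobase of exon (CPM per kb, log axis) of the 9 members in WT cortex (purple) and WT cerebellum (green), with 1 point per sample (n = 8 per region) and a bar at the mean. The widest gap between regions is that of Vgf, and Chgb and Scg3 are the members with a higher mean in cerebellum.

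Both regions carried the whole set, in different proportions. WT cortex and WT cerebellum differed in all 9 members at an adjusted p under 0.05 (edgeR's quasi-likelihood test, Benjamini-Hochberg adjustment over all genes), 7 higher and 2 lower in cortex, in a comparison that called 73.5% of the 18032 genes tested (35.4% higher and 38.2% lower). Vgf, which encodes a precursor of several bioactive peptides, ran from 354 to 498 CPM (median 451) in WT cortex and from 32.0 to 61.2 CPM (median 41.9) in WT cerebellum, with no overlap. The fitted difference was 10.1-fold, or 3.34 ± 0.158 on the log2 scale (SE). Every processing gene was also higher in cortex: Pcsk2 by 3.96-fold, Cpe by 2.29-fold, Pcsk1 by 2.05-fold and Pcsk1n by 1.69-fold. Smaller cortical excesses were seen for Scg5 (1.38-fold) and Chga (1.28-fold). Chgb and Scg3 were instead lower in cortex, with log2 differences of -0.48 ± 0.0746 and -0.24 ± 0.0427. In bulk tissue, fewer cells of a type and less RNA per cell cannot be told apart, here and in every comparison that follows. Overlap of sample ranges was read for the members only throughout, and the share of all genes without overlap was not counted.

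Loss of the long isoform changed most of the set in cortex, and in both directions. In the Cic-L-KO cortex 8 of the 9 members passed, 4 higher and 4 lower than WT, where 43.2% of the 16974 genes tested passed, 21.4% higher and 21.9% lower. The granins Vgf, Scg3 and Chga and the inhibitor Pcsk1n rose, while the granin Chgb, the convertase Pcsk2, its chaperone Scg5 and Cpe fell. The median log2 fold change was -0.14 over the 9 members and 0.011 over all genes, and 90% of all genes are bracketed by -0.47 and 0.74.

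Cortical Vgf ranged from 525 to 619 CPM (median 576) in Cic-L-KO against 354 to 498 CPM (median 451) in WT. The lowest knockout sample lay above the highest WT sample, and the change was 0.40 ± 0.0591 on the log2 scale (1.32-fold, adjusted p = 4.46e-06, edgeR). Chga, a granin of the vesicle core and a precursor of vasostatin and other peptides, ran from 168 to 197 CPM (median 185) in Cic-L-KO and from 133 to 161 CPM (median 146) in WT, again without overlap. Its change was 0.35 ± 0.0385 (adjusted p = 1.44e-08, edgeR). Scg3, whose product tethers granin aggregates to the vesicle membrane, reached 413 to 475 CPM (median 448) against 322 to 390.1 CPM (median 356). Its groups did not overlap either, and its log2 fold change was 0.33 ± 0.0443 (adjusted p = 4.84e-07, edgeR).

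Chgb, the other large granin, went the opposite way, at 483 to 545 CPM (median 495) in Cic-L-KO and 542 to 634 CPM (median 585) in WT. Of the 8 knockout samples, 7 lay below every WT sample, and the change was -0.21 ± 0.0349 (adjusted p = 1.25e-05, edgeR). The 2 chromogranin transcripts therefore moved in opposite directions in the same libraries.

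The PC2 pair fell together. Pcsk2 ranged from 224 to 280.1 CPM (median 251) in Cic-L-KO and from 319 to 387 CPM (median 346) in WT, a separation without overlap and a log2 fold change of -0.48 ± 0.0485 (0.718-fold, adjusted p = 3.13e-09, edgeR). Scg5 ranged from 130.4 to 162 CPM (median 149) against 164 to 197 CPM (median 182), also without overlap, with a change of -0.31 ± 0.0479 (adjusted p = 4.79e-06, edgeR). Cpe fell less, from a WT range of 3125 to 3569 CPM (median 3175) to 2798 to 3133 CPM (median 2926). Its ranges met at the edge, with 7 of 8 knockout samples below all WT samples, and its change was -0.14 ± 0.0396 (adjusted p = 0.00412, edgeR).

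On the PC1/3 side, the inhibitor gene Pcsk1n rose from 523 to 638 CPM (median 591) in WT to 724 to 836 CPM (median 769) in Cic-L-KO, without overlap, by 0.42 ± 0.046 (adjusted p = 1.54e-08, edgeR). Pcsk1 itself lay at 67.4 to 85.3 CPM (median 72.0) against 58.3 to 104 CPM (median 93.3), and its difference of -0.21 ± 0.16 did not pass (adjusted p = 0.31, edgeR). The knockout range sat inside the WT range.

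**Figure D2:**
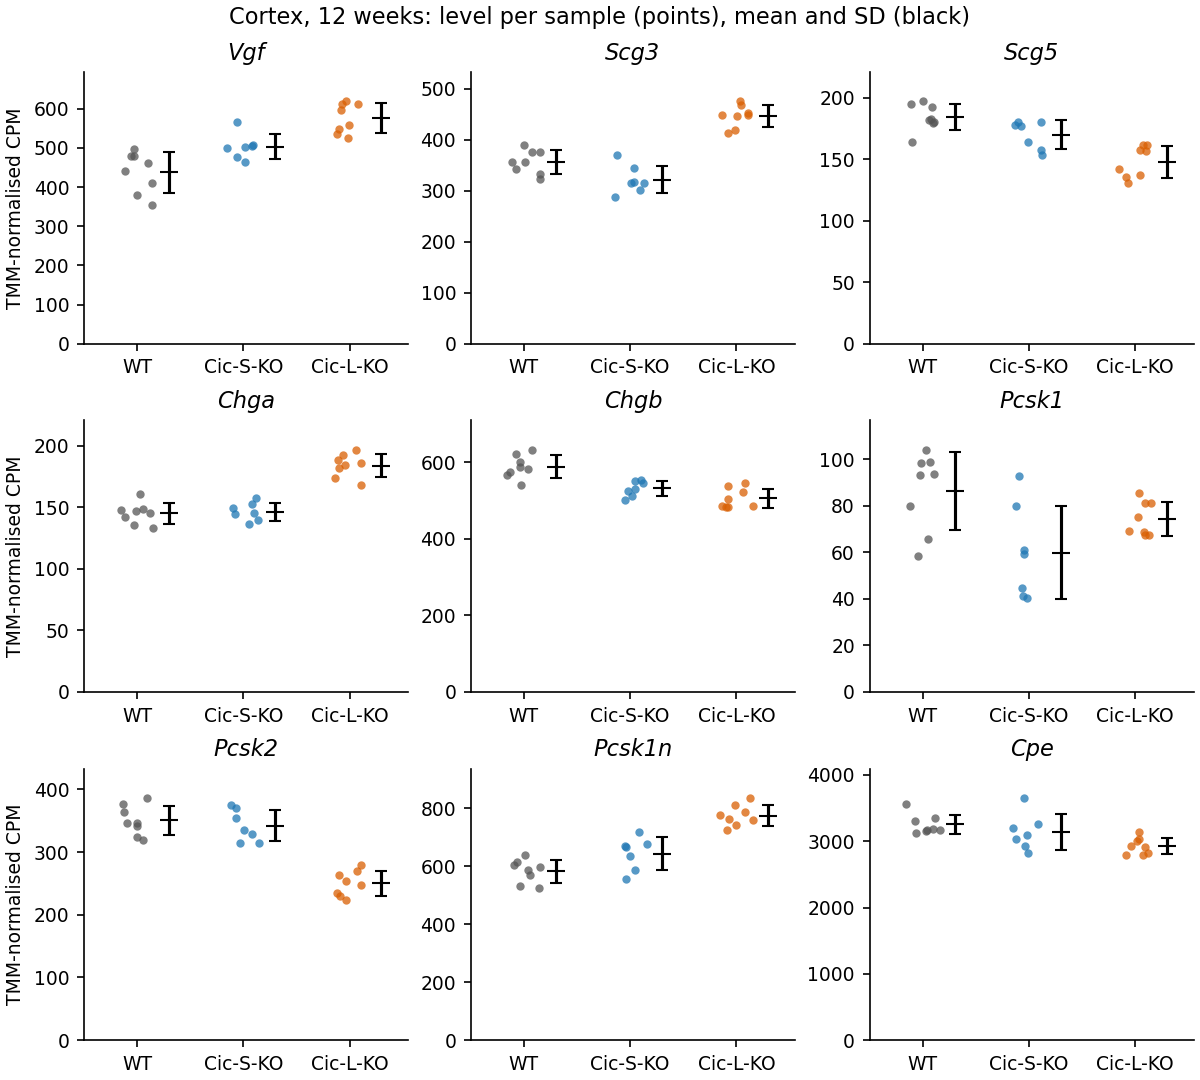
TMM-normalised CPM of the 9 members in cortex, 1 panel per gene, with 1 point per sample (WT n = 8, Cic-S-KO n = 7, Cic-L-KO n = 8) and the mean ± SD in black. Cic-L-KO points are clear of WT for Vgf, Scg3, Chga and Pcsk1n above and for Scg5 and Pcsk2 below, and Pcsk1 in Cic-S-KO has the widest scatter relative to its mean. Such separation was not counted over all genes.

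Cell type markers differed between these groups too. In the Cic-L-KO cortex 4 of 5 general neuron markers and 3 of 4 cortical projection neuron markers fell and 0 rose; the former summed to 2434 to 2794 CPM against 3285 to 3577 CPM in WT and the latter to 1404 to 1646 against 1861 to 2073 CPM. The part of neuron content in the members' changes was not tested. Of inhibitory neuron markers 2 of 5 rose, with sums of 802 to 989 CPM against 768 to 883 CPM in WT. Endothelial markers also rose (3 of 5), and choroid plexus sums varied from 19.2 to 1331 CPM between Cic-L-KO cortices. Of astrocyte markers 2 of 5 rose, of microglia markers 2 of 5 rose, and of oligodendrocyte markers 1 of 5 fell. Scg3 shares its locus with the gene Gm37871, Pcsk2 with the antisense genes Pcsk2os1 and Pcsk2os2 and Pcsk1n with Eras on the opposite strand, and whether counting used strand is not given in the sources used here, so their counts may hold reads of these neighbours.

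Without the short isoform, fewer members passed in cortex. In the Cic-S-KO cortex 2 of the 9 members passed, Vgf higher and Chgb lower, where 6.53% of genes passed, 2.83% higher and 3.70% lower. Vgf ranged from 464 to 566 CPM (median 501), with 5 of 7 samples above every WT sample, and its change was 0.20 ± 0.0611 (1.15-fold, adjusted p = 0.0433, edgeR). Chgb ranged from 502 to 554 CPM (median 531), with 4 of 7 samples below every WT sample, and its change was -0.14 ± 0.0361 (adjusted p = 0.0186, edgeR). Among those that did not pass, Pcsk1n (0.15 ± 0.0475, adjusted p = 0.058) and Scg3 (-0.14 ± 0.0459, adjusted p = 0.0546) were closest in edgeR. The Vgf call was lost without the low-count filter (adjusted p = 0.105), with only WT and Cic-S-KO in the fit (0.0709), and, in an alternative added after seeing the data, when a GC-content trend was removed from each library (0.11, adjusted p = 0.353). Neuron markers were lower in this genotype too: 2 of 5 fell and 0 rose, with sums of 2957 to 3268 CPM against 3285 to 3577 CPM in WT, and 2 of 5 oligodendrocyte markers rose, with sums of 4368 to 6422 CPM against 3999 to 5547 CPM. Striatal markers summed to 138 to 470 CPM (median 404) against 129 to 395 CPM (median 215) in WT, and 0 of 5 passed. The part of these cell types in the Vgf and Chgb differences was not tested.

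Relative to its mean, Pcsk1 showed the widest spread of the set in the Cic-S-KO cortex (SD 33.6% of the mean). Its samples stood at 40.4, 41.4, 44.6, 59.2, 60.9, 79.7 and 92.6 CPM, and the log2 difference from WT was -0.52 ± 0.168 (adjusted p = 0.0646, edgeR). Of these 7 samples, 3 lay below the lowest WT sample at 58.3 CPM and the other 4 lay within the WT range. DESeq2 (adjusted p = 0.0245), a non-robust edgeR fit (0.0313) and the fit with a covariate for Y-linked reads (0.0454) placed it past the threshold.

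Set directly against each other, the knockouts differed in 6 of the 9 members in cortex, 2 higher and 4 lower in Cic-S-KO, where 33.9% of all genes did (17.4% higher and 16.5% lower). Scg3 (-0.47 ± 0.0461), Chga (-0.33 ± 0.0399), Pcsk1n (-0.27 ± 0.0477) and Vgf (-0.20 ± 0.0612) were the lower ones, with adjusted p from 1.25e-09 to 0.0131 (edgeR). Pcsk2 (0.45 ± 0.05) and Scg5 (0.20 ± 0.0495) were higher, with adjusted p of 2.53e-08 and 0.00202 (edgeR). Scg3, Chga, Pcsk1n and Pcsk2 did not overlap between the knockouts in any sample, and how many of all genes did so was not counted. For Chgb the difference of 0.07 ± 0.0361 did not pass (adjusted p = 0.137, edgeR), and neither did Cpe or Pcsk1. Without the low-count filter Vgf no longer passed (-0.19, adjusted p = 0.0617) and Cpe did (0.11, adjusted p = 0.0389).

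**Figure D3:**
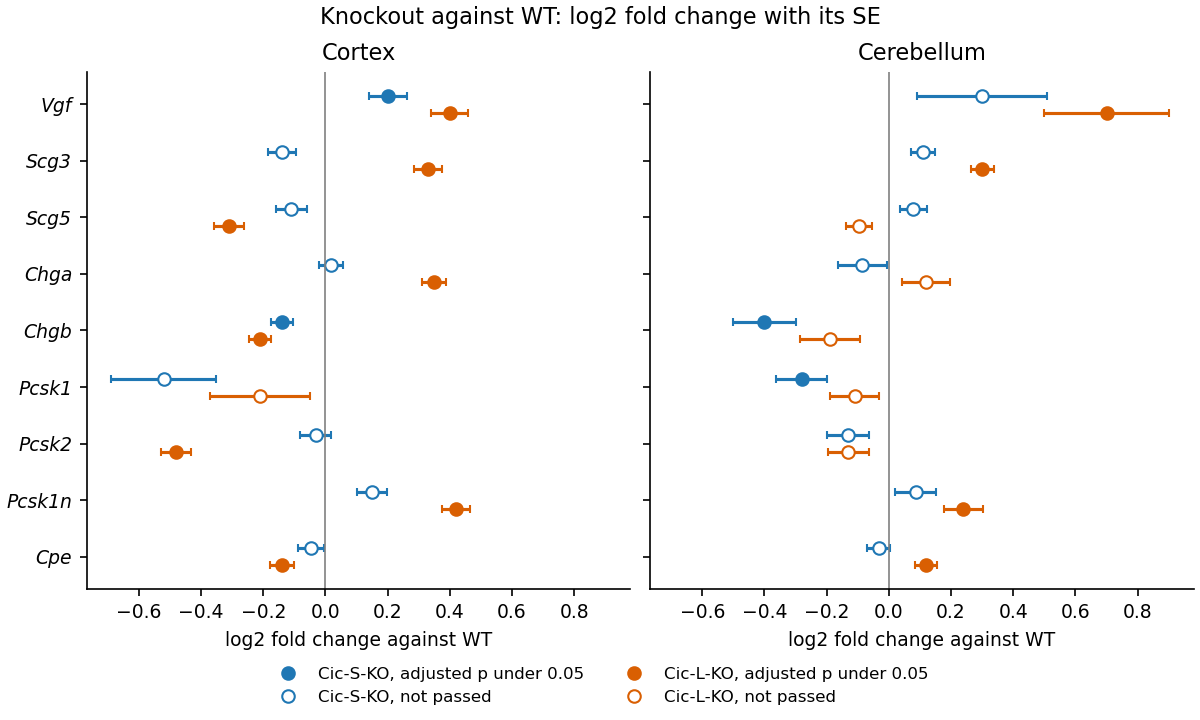
Log2 fold change of each member against WT with its SE (horizontal bar), in cortex (left) and cerebellum (right), for Cic-S-KO (blue) and Cic-L-KO (orange). Filled points passed an adjusted p under 0.05 in edgeR. In cortex the orange points spread from -0.48 (Pcsk2) to 0.42 (Pcsk1n), and the blue points that passed are Vgf and Chgb.

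In the cerebellum, loss of the long isoform was followed by higher levels of 4 members and lower levels of 0. Vgf, Scg3, Pcsk1n and Cpe passed of the 9, where 21.5% of the 16643 genes tested passed, 10.9% higher and 10.6% lower. The medians were 0.12 over the members and 0.0038 over all genes. Scg3 ranged from 487 to 579 CPM (median 509.5) in Cic-L-KO against 389 to 469 CPM (median 419) in WT, without overlap, and rose by 0.30 ± 0.0371 (adjusted p = 2.16e-06, edgeR). Pcsk1n ranged from 349 to 453 CPM (median 410.2) against 308 to 405 CPM (median 336), with 4 of 8 knockout samples above all WT samples, and rose by 0.24 ± 0.0636 (adjusted p = 0.00795, edgeR). Cpe ranged from 1439 to 1583 CPM (median 1543) against 1335 to 1485 CPM (median 1419), with 6 of 8 above, and rose by 0.12 ± 0.036 (adjusted p = 0.0193, edgeR). The Cpe call held in 9 of 11 alternatives, with an adjusted p of up to 0.0577 (edgeR). Cpe had fallen in the cortex of the same genotype.

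Vgf had the largest log2 fold change of the set in the Cic-L-KO cerebellum and the largest scatter relative to its mean (SD 30.4% of the mean). Its Cic-L-KO samples ranged from 51.1 to 116 CPM (median 66.1), those of WT from 32.0 to 61.2 CPM (median 41.9), and 4 of 8 knockout samples exceeded every WT sample. The change was 0.70 ± 0.201 (1.62-fold, adjusted p = 0.0165, edgeR), and the call held in 10 of 11 alternatives, with an adjusted p of up to 0.0508. Chga (0.12 ± 0.0762), Scg5 (-0.095 ± 0.0411), Chgb (-0.19 ± 0.0962), Pcsk2 (-0.13 ± 0.065) and Pcsk1 (-0.11 ± 0.0778) did not pass, with adjusted p from 0.102 to 0.362 (edgeR). Cell type markers moved with this genotype as well. Those that rose were 4 of 4 tested inhibitory neuron markers, which summed to 1838 to 2217 CPM against 1463 to 1819 CPM in WT, and 5 of 5 endothelial markers, at 144 to 180.1 against 93.1 to 122 CPM. Of general neuron markers 2 of 5 fell, of granule neuron markers 1 of 5 (sums of 3021 to 4391 against 3889 to 5051 CPM), and of astrocyte markers 2 of 5 fell and 1 rose. Their part in the members' changes was not tested.

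**Figure D4:**
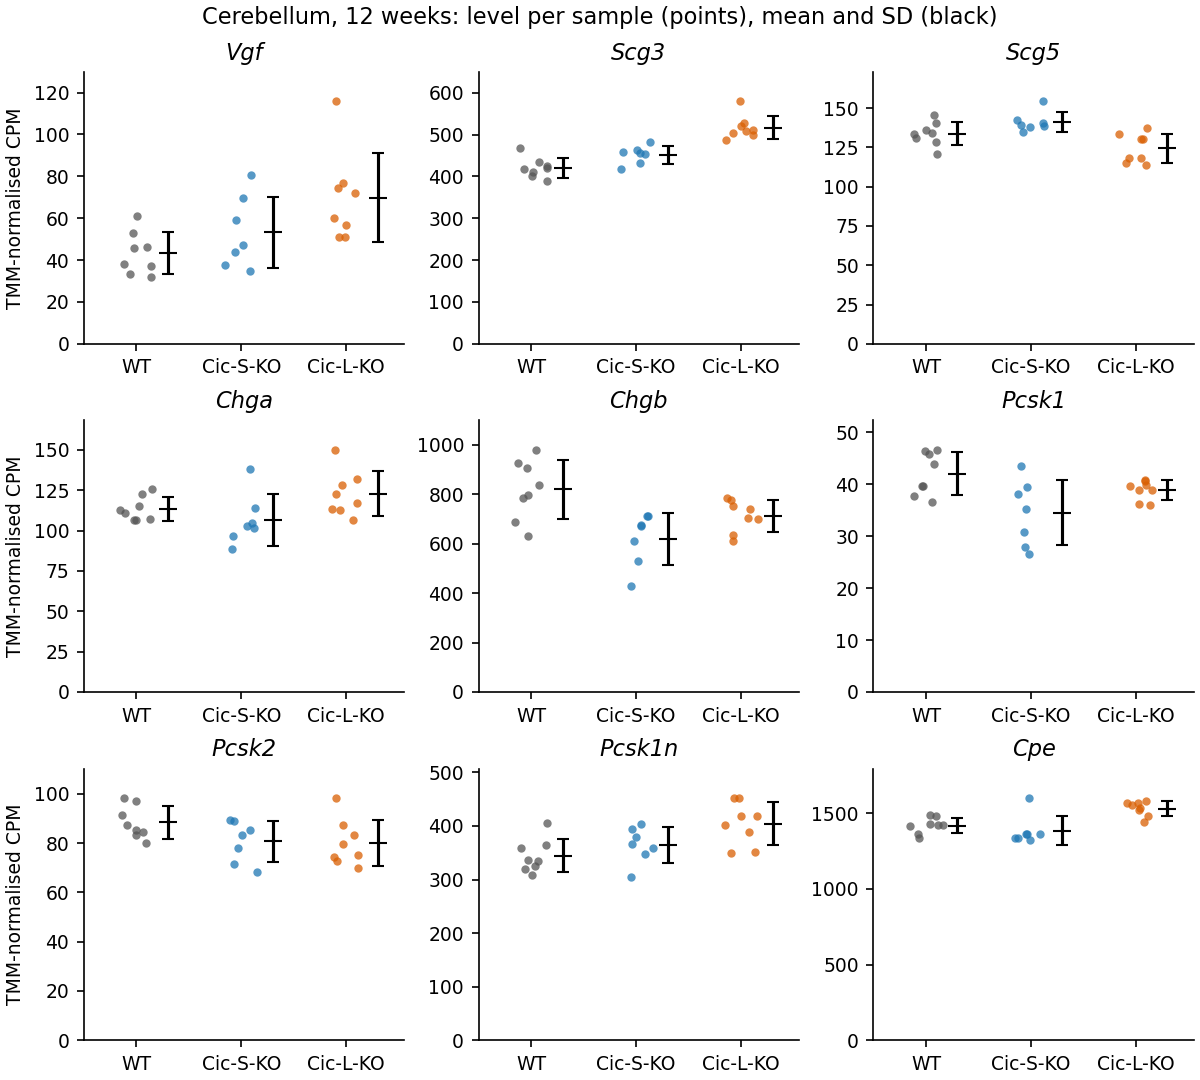
TMM-normalised CPM of the 9 members in cerebellum, 1 panel per gene, with 1 point per sample (WT n = 8, Cic-S-KO n = 7, Cic-L-KO n = 8) and the mean ± SD in black. Scg3 is the only member whose Cic-L-KO and WT points do not overlap, and 1 Cic-L-KO sample holds the highest Vgf level at 116 CPM.

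The 6 libraries with high Sst, Tac1 and Vip also held more Vgf, which was not the only member to differ in them. Their Vgf ran from 60.1 to 116 CPM (median 73.3), against 32.0 to 74.6 CPM (median 46.1) in the other 17, and their granule neuron gene Gabra6 ran lower, at 359 to 581 against 505 to 833 CPM. The cortical marker Tbr1 did not stand apart in them, at 0.538 to 1.29 against 0.455 to 1.24 CPM. Other members differed in median between the 6 and the 17, with overlapping ranges. Pcsk1n stood at 412 against 351 CPM, Chga at 129 against 111 CPM, Cpe at 1560 against 1420 CPM and Chgb, lower, at 633 against 754 CPM. The medians of the remaining members lay closer together, and the genotype mix of the 6 and the 17 also differed. Within the other 17, Vgf ran from 51.1 to 74.6 CPM in 5 Cic-L-KO, from 34.7 to 59.0 CPM in 5 Cic-S-KO and from 32.0 to 52.7 CPM in 7 WT samples. Without the 6 libraries, an alternative chosen after seeing the data, Vgf in Cic-L-KO was still higher by 0.59 (adjusted p = 0.0194, edgeR), Cpe no longer passed (0.095, adjusted p = 0.0577), and Scg5 (-0.15, adjusted p = 0.0187) and Pcsk2 (-0.20, adjusted p = 0.0421) were lower. Scg3 (0.31, adjusted p = 9.8e-06) and Pcsk1n (0.22, adjusted p = 0.0167) still passed in edgeR.

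**Figure D5:**
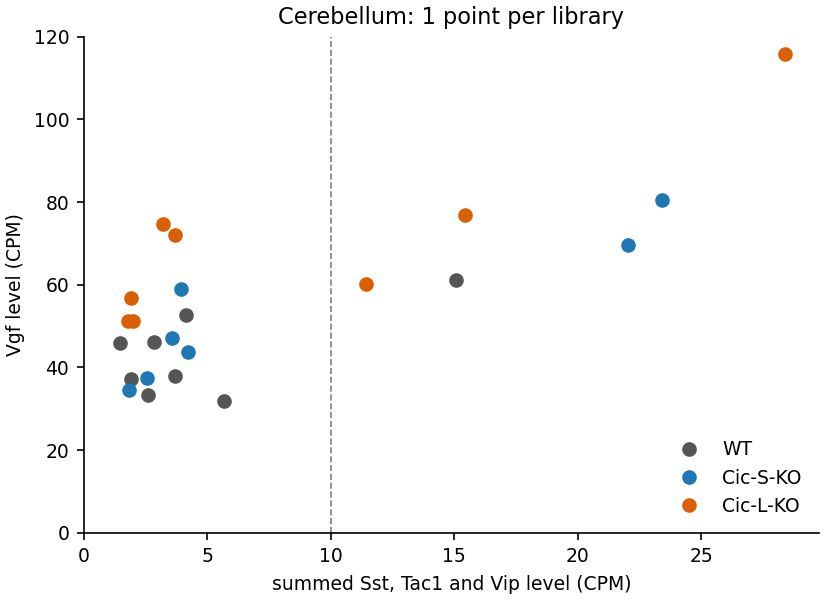
Vgf level (CPM) against the summed level of Sst, Tac1 and Vip (CPM) in the 23 cerebellar libraries, coloured by genotype, with a dashed line at 10 CPM. To the right of the line lie 6 libraries (1 WT, 2 Cic-S-KO and 3 Cic-L-KO), all with Vgf of at least 60.1 CPM, and to its left the Cic-L-KO points begin at 51.1 CPM.

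Loss of the short isoform in cerebellum was accompanied by lower Chgb and Pcsk1. These 2 of the 9 members passed, where 8.23% of genes passed, 4.34% higher and 3.89% lower. Chgb ranged from 427 to 711 CPM (median 672) in Cic-S-KO against 631 to 980.1 CPM (median 818) in WT, with 3 of 7 samples below all WT samples, and fell by 0.40 on the log2 scale (SE 0.1, adjusted p = 0.0153, edgeR). Pcsk1 ranged from 26.7 to 43.5 CPM (median 35.2) against 36.6 to 46.7 CPM (median 41.8), with 4 of 7 below, and its change was -0.28 ± 0.0812 (adjusted p = 0.0302, edgeR). Vgf lay at 34.7 to 80.6 CPM (median 47.2), a difference of 0.30 ± 0.208 (adjusted p = 0.403, edgeR), and of 0.12 (adjusted p = 0.731) without the 6 libraries. Markers of granule neurons moved with this genotype: 4 of 5 fell, and they summed to 2634 to 4055 CPM against 3889 to 5051 CPM in WT. General neuron markers fell in 3 of 5 cases, and 4 of 4 tested inhibitory neuron markers rose, with sums of 1818 to 2221 CPM against 1463 to 1819 CPM in WT. The part of these cells in the result was not tested. The Pcsk1 call was lost in 4 of 11 alternatives, among them the fit without the 6 libraries (-0.31, adjusted p = 0.0817). The Chgb call held in 10 of 11, with an adjusted p of up to 0.0592 (edgeR), and it held without the 6 libraries (-0.39, adjusted p = 0.00806, edgeR).

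Between the knockouts, 3 of the 9 members differed in cerebellum, where 12.4% of genes did (6.06% higher and 6.38% lower in Cic-S-KO). Scg3 (-0.20 ± 0.0384) and Cpe (-0.15 ± 0.0374) were lower and Scg5 (0.17 ± 0.0426) was higher in Cic-S-KO, with adjusted p of 0.000807, 0.00744 and 0.00671 (edgeR). Scg3 ran from 418 to 483 CPM in Cic-S-KO and from 487 to 579 CPM in Cic-L-KO, with no overlap. For Vgf the difference was -0.40 ± 0.208, and it did not pass (adjusted p = 0.238, edgeR). Chga, at -0.21 ± 0.0792 (adjusted p = 0.0858, edgeR), passed without the 6 libraries (-0.22, adjusted p = 0.012) and in DESeq2 (adjusted p = 0.0444), which makes 4 members called in each.

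An interaction term, fitted to the 46 samples of both regions, asked whether a knockout's effect depended on region. For Cic-L-KO 4 of the 9 members passed, where 23.0% of all genes did (11.5% in each direction). The effect was lower in cortex than in cerebellum for Cpe (-0.26 ± 0.0549, adjusted p = 0.000378), Pcsk2 (-0.34 ± 0.0848, adjusted p = 0.00242) and Scg5 (-0.21 ± 0.0658, adjusted p = 0.0139) and higher for Chga (0.22 ± 0.0842, adjusted p = 0.0463), all in edgeR. Without the 6 cerebellar libraries Scg5 no longer passed (-0.16, adjusted p = 0.107). Cpe (-0.24, adjusted p = 0.00132), Pcsk2 (-0.28, adjusted p = 0.0196) and Chga (0.27, adjusted p = 0.00298) still did in edgeR. The Chga call was lost in 4 of 9 alternatives, with an adjusted p of up to 0.122. For Vgf (-0.30 ± 0.206, adjusted p = 0.319, edgeR) and Scg3 (0.027 ± 0.0603, adjusted p = 0.792, edgeR) no difference between regions passed. For Cic-S-KO 1 of 9 members passed, where 4.50% of genes did (2.01% higher and 2.50% lower): Scg3, at -0.25 ± 0.0625 (adjusted p = 0.0145, edgeR), from a cortical difference of -0.14 and a cerebellar one of 0.11, neither of which passed in its own region. It still passed without the 6 libraries (-0.26, adjusted p = 0.0241, edgeR).

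Other genes of peptide secretion were read from lists chosen by function, with earlier results of these data known. The shares of all genes called were 43.2% in the Cic-L-KO cortex, 6.53% in the Cic-S-KO cortex, 21.5% in the Cic-L-KO cerebellum and 8.23% in the Cic-S-KO cerebellum. Of 14 further processing enzymes analysed, 8 rose and 2 fell in the Cic-L-KO cortex (median 0.17), 1 rose and 1 fell in the Cic-S-KO cortex (median 0.075), and in cerebellum 3 rose and 2 fell in Cic-L-KO (median 0.026) and 3 rose and 1 fell in Cic-S-KO (median 0.022). Ece2, an endothelin-converting metalloprotease, rose in the Cic-L-KO cortex from 0.979 ± 0.268 to 2.27 ± 0.639 CPM (SD, n = 8 each). The convertase gene Pcsk5 rose in the Cic-L-KO cerebellum from 2.43 ± 0.514 to 4.55 ± 0.667 CPM, a log2 fold change of 0.91 ± 0.135 (adjusted p = 2.99e-05, edgeR). Both were at low levels. Pcsk7 fell in the cerebellum of both knockouts, by 0.23 without the short and 0.22 without the long isoform on the log2 scale, and these comparisons share their WT samples.

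Of 23 analysed genes of dense-core vesicle formation, docking and release, 5 rose and 10 fell in the Cic-L-KO cortex (median -0.069), and 0 rose and 6 fell in the Cic-S-KO cortex (median -0.042), where 43.2% and 6.53% of all genes were called. Rab3b, a small GTPase of regulated secretion, rose from 60.4 ± 2.80 to 125 ± 8.82 CPM in the Cic-L-KO cortex (1.06 ± 0.0713 on the log2 scale, adjusted p = 1.5e-11, edgeR). Snap25, a SNARE protein shared with synaptic vesicles, fell there from 2954 ± 196 to 2090.5 ± 164 CPM and in the Cic-S-KO cortex to 2458 ± 113 CPM (n = 7). In cerebellum 2 rose and 6 fell in Cic-L-KO (median 0.016) and 1 rose and 4 fell in Cic-S-KO (median -0.03), where 21.5% and 8.23% were. There Syt4, a synaptotagmin of dense-core vesicles, fell in Cic-L-KO from 275 ± 18.8 to 213 ± 10.8 CPM, and Ccdc186, needed for vesicle maturation, fell in both knockouts.

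Peptide precursors, the cargo of these vesicles, also split. Of the 18 tested in cortex, 7 rose and 3 fell in Cic-L-KO (median 0.13, 43.2% of all genes called). The smallest p there were those of Sst (from 190 ± 7.05 to 312 ± 12.3 CPM) and Npy (from 62.5 ± 4.67 to 109 ± 7.67 CPM), which were not the largest changes. In Cic-S-KO 0 rose and 6 fell (median -0.021, 6.53% of all genes called), with the smallest p for Grp (from 8.30 ± 1.46 to 5.40 ± 0.922 CPM) and Adcyap1 (from 24.6 ± 2.92 to 18.8 ± 0.936 CPM). Of the 14 tested in cerebellum, 3 rose and 1 fell in Cic-L-KO (median 0.48, 21.5% of all genes called), where Npy fell from 8.20 ± 1.41 to 2.81 ± 0.748 CPM and Penk rose from 60.1 ± 3.47 to 80.4 ± 9.59 CPM. In the Cic-S-KO cerebellum, with 8.23% of all genes called, 1 rose, Npy, to 11.2 ± 2.09 CPM (n = 7). The list holds Sst, Tac1 and Vip, the genes by which 6 cerebellar libraries stood apart. Of these libraries 3 were Cic-L-KO, 2 Cic-S-KO and 1 WT. The cerebellar counts and medians of the list were not recomputed without them, so their part in the median of 0.48 was not tested.

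Immediate early genes, which mark recent neuronal activity, were listed because Vgf and Pcsk1 are known to respond to it. Of 12, 4 fell and 0 rose in the Cic-L-KO cortex (median -0.45), where 43.2% of all genes were called, 21.4% higher and 21.9% lower. In either direction the list's share of calls lay below that of all genes, and for lower calls it lay above. There Egr1 fell from 491 ± 142 to 263 ± 40.1 CPM and Egr4 from 47.3 ± 12.6 to 25.1 ± 3.45 CPM, in the same libraries in which Vgf was higher. In the Cic-S-KO cortex 0 of 12 passed in edgeR, with Nptx2 at -0.39 ± 0.122 (adjusted p = 0.0565) and Ier2 at 0.37 ± 0.177 (adjusted p = 0.215) the nearest. In cerebellum 2 of 11 fell and 0 rose in Cic-L-KO (median -0.16), Egr1 by 0.82 and Egr4 by 0.81 on the log2 scale. This share was near the 21.5% of all genes called in either direction and above the 10.6% called lower.

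As a description over the 46 brain samples, with the mean of each group removed, the 3 genes most like Vgf among 12670 were Cx3cl1, a membrane-bound chemokine of neurons (Pearson r = 0.80), Basp1, a membrane protein of growing axons (0.78), and Ccdc184 (0.76). In the 23 cortical samples alone the values were 0.59, 0.47 and 0.33, and in the 23 cerebellar samples 0.86, 0.81 and 0.83, and the cerebellar samples include the 6 libraries that stand apart. Among the members, Chga was the most like Vgf (0.67, place 50 of 12670), with 0.51 in cortex and 0.70 in cerebellum. Pcsk1 followed Vgf more in cortex (0.64) than in cerebellum (0.19), and Pcsk1n had opposite signs (-0.34 in cortex and 0.78 in cerebellum). Over all 36 pairs of members the median r was 0.17 in cortex and 0.19 in cerebellum. The points share libraries and depth.

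In lung at postnatal day 6 the members were scarce apart from Cpe, and only Chgb, Cpe, Pcsk1, Scg3 and Scg5 had counts enough to be tested. In the Cic-S-KO lung 1 of these 5 passed, where 15.7% of the 16695 genes tested did (9.99% higher and 5.73% lower). Cpe ranged from 53.9 to 75.9 CPM (median 64.6) in Cic-S-KO and from 32.9 to 54.4 CPM (median 49.0) in WT, with an overlap at the edge, and rose by 0.50 ± 0.0932 (1.42-fold, adjusted p = 0.000761, edgeR). In the Cic-L-KO lung 0 of 5 passed, where 4.89% of genes did (2.62% higher and 2.28% lower): Cpe ranged from 47.5 to 60.4 CPM (0.29 ± 0.0935, adjusted p = 0.0715, edgeR) and was the 1 member with an unadjusted p under 0.05 and the 1 that DESeq2 called (adjusted p = 0.0371). In 1 library, Cic-S-KO replicate 5, Vgf stood at 3.88 CPM, against 0 to 0.528 CPM in the other 23 lungs, Pcsk1n at 3.35 against 0.0401 to 0.414 CPM and Pcsk2 at 2.05 against 0 to 0.238 CPM. Markers of cortical projection neurons summed to 13.6 CPM in that library and to 0.278 to 0.890 CPM in the others, with Neurod6 at 3.71 CPM against 0 in all others. General neuron markers (94.8 against 41.0 to 73.2 CPM) and lung neuroendocrine markers (13.8 against 5.38 to 10.6 CPM) were also highest there. The source of these reads was not tested. Without it the Cpe rise was 0.46 (adjusted p = 0.00239, edgeR). Tissue, age and batch cannot be told apart between lung and brain, so levels were not compared between them.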

How the data were processed

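Poly(A)-selected RNA was sequenced, and the authors deposited 1 table of unnormalised counts per gene for 70 libraries, aligned with STAR 2.7 to GRCm38.p6 per the submitters' processing notes. The counting program, its annotation and its use of strand are not given in the sources used here. Identifiers were named through GENCODE M21, which matched 50725 of 50789, and exon lengths came from it. In edgeR 4.0.16 (R 4.3.3), genes were kept by filterByExpr, scaled by TMM and fitted by robust quasi-likelihood over the 3 genotypes of a tissue, or over the 6 brain groups for the regional and interaction contrasts. An adjusted p under 0.05 over all genes counted as a call. Standard errors came from the F statistic. The steps were tested on simulated data: of 200 genes given a simulated log2 change of 0.5, 136 were recovered in the cortical Cic-L-KO comparison over 16608 genes, with 6.85% false calls. In the data themselves 7338 genes were called in that comparison. The simulation changed far fewer, so it does not give the share of false calls in the data.

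All members were named, with the 2 smallest p of each other list in each brain knockout comparison with WT, the 3 genes most like Vgf (mean log2 CPM of at least 1, prior count 2) and Cic. The members and lists were chosen with earlier results of these data known. Alternatives were DESeq2 1.42.0, RLE scaling, a non-robust fit, dropping the filter on low counts or replacing it by a minimum mean of 50 counts, a covariate for Y-linked reads, the replicate number of the titles as a block and only the compared genotypes. Removing the median of 20 GC bins, leaving out libraries that stood apart and a block by library number were added after seeing the data.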

Additional observations from a re-analysis of the deposited data

Results flagged for a closer look

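In 81 groups of member levels (9 members in 9 groups), 13 held a sample far from the others by Dixon's criterion, where chance gives about 4.05. Of these, 6 fell on 1 library, Cic-S-KO lung replicate 5, with Vgf at 3.88 CPM, Pcsk1n at 3.35 CPM, Chgb at 3.18 CPM, Scg3 at 2.60 CPM, Pcsk2 at 2.05 CPM and Chga at 1.52 CPM. The next highest sample of that group reached 0.290 CPM for Vgf and 1.41 CPM for Chgb, and the neuron markers of this library are given in the report. In other lungs, Chga was at 0 in Cic-L-KO replicate 4, where the rest of the group began at 0.125 CPM, and Vgf was at 0.528 CPM in WT replicate 3, with the next at 0.196 CPM. In cerebellum, Cpe was at 1602 CPM in Cic-S-KO replicate 4 (next 1365 CPM), Scg3 at 579 CPM in Cic-L-KO replicate 1 (next 527 CPM), Scg5 at 154 CPM in Cic-S-KO replicate 3 (next 142 CPM) and Vgf at 116 CPM in Cic-L-KO replicate 4 (next 76.9 CPM). Cic-S-KO replicate 4 and Cic-L-KO replicate 4 are among the 6 cerebellar libraries with high Sst, Tac1 and Vip. In cortex, Vgf was at 566 CPM in Cic-S-KO replicate 5 (next 507 CPM).

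Knockout effects differed between cortex and cerebellum by an interaction test in 5 cases. For Cic-L-KO the log2 difference, cortex minus cerebellum, was -0.26 for Cpe, -0.34 for Pcsk2, -0.21 for Scg5 and 0.22 for Chga. For Cic-S-KO it was -0.25 for Scg3.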

How the results depend on the processing

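Of 902 member values recomputed under the alternatives, 862 kept their direction and their side of the threshold. The count of members called in the Cic-S-KO cortex, 2, became 5 with DESeq2, 4 with Y-linked reads as a covariate and 1 without the low-count filter, with GC-bin medians removed or with only the compared genotypes. In the Cic-S-KO cerebellum, 2 became 1 without the filter, with the replicate block, with GC-bin medians removed, with only the compared genotypes and without the 6 libraries. In the Cic-L-KO lung, 0 became 1 with DESeq2, with the Y-linked covariate and with the replicate block. Signs turned for small differences: Chga in the Cic-S-KO cortex (-0.057 with GC-bin medians removed, otherwise 0.018), the Chgb interaction for Cic-L-KO (0.0068 with a mean of at least 50 counts), the Vgf (0.076) and Cpe (0.016) interactions for Cic-S-KO without the 6 libraries, and Scg3 in the Cic-S-KO lung (-0.095 without replicate 5, otherwise 0.45). Over all genes, calls in the Cic-S-KO cortex fell from 1108 to 732 without the filter, 452 with GC-bin medians removed and 654 with only the compared genotypes. The Cic-S-KO interaction calls went from 812 to 446 without the filter and 538 without the 6 libraries. The cause was not tested.

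Replicate numbers are shared between groups, but no label ties them to animals. Deviations of same-numbered samples from their group means had correlations from -0.00 to 0.35 between regions (median 0.21). Between genotypes they ran from -0.50 to 0.57 (medians 0.09 in cerebellum, 0.16 in cortex and 0.26 in lung). Pairs of different number were not computed for comparison, so whether the regions share animals was not tested. The main regional and interaction fits treated the 46 brain samples as separate. With the replicate block, calls over all genes went from 1108 to 627 in the Cic-S-KO cortex, from 1370 to 591 in the Cic-S-KO cerebellum and from 817 to 1285 in the Cic-L-KO lung. Of the members called, the block lost Chgb in the Cic-S-KO cerebellum (adjusted p = 0.0592) and Cpe in the Cic-L-KO cerebellum (0.0502). These numbers are those of the sample titles, and in Cic-S-KO cortex and cerebellum 6 of 7 differ from the number in the library name. With the replicate block by library number, chosen after seeing the data, correlations between genotypes ran from -0.31 to 0.46 in brain. Chgb (0.023) and Cpe (0.0399) kept their calls, Vgf in the Cic-L-KO cerebellum lost its call (0.70, adjusted p = 0.0508), Scg3 in the Cic-S-KO cortex passed (0.0395), and Pcsk2 between the knockouts in cerebellum turned from 0.0042 to -0.0062. Calls over all genes were then 1121 in the Cic-S-KO cortex and 1001 in the Cic-S-KO cerebellum.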

Other observations

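Replicates 1 to 4 of each group (1 to 3 of Cic-S-KO in brain) held Y-linked reads and the rest did not. In WT cortex, Vgf ranged from 354 to 441 CPM in the 4 libraries with Y-linked reads and from 462 to 498 CPM in the 4 without, and Pcsk1 from 58.3 to 93.1 CPM and from 93.5 to 104 CPM. In WT cerebellum, Chgb ranged from 631 to 798 CPM with and from 838 to 980.1 CPM without them, and Pcsk1 from 36.6 to 39.7 CPM and from 43.8 to 46.7 CPM. In both knockouts the Pcsk1 ranges of these libraries overlapped in each region, but other members separated. In the Cic-L-KO cerebellum, Scg5 ranged from 130 to 137 CPM with and from 113 to 118 CPM without Y-linked reads. Cpe ranged there from 1551 to 1583 CPM and from 1439 to 1535 CPM. In WT cerebellum Cpe went the other way, from 1335 to 1419 CPM with and from 1420 to 1485 CPM without them. In Cic-S-KO, Scg5, Cpe and Pcsk1n separated in cortex and Pcsk1n in cerebellum. These values were picked after they were seen and were not tested.

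In Cic-S-KO, the 3 lowest Pcsk1 levels belonged to the samples titled replicate 2, 6 and 7 in both regions, whose library names carry 3, 7 and 8, at 40.4, 44.6 and 41.4 CPM in cortex and 26.7, 30.9 and 28.0 CPM in cerebellum. The other 4 samples ranged from 59.2 to 92.6 CPM and from 35.2 to 43.5 CPM. The labels do not say whether equal numbers denote 1 animal.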
